A study of Arabidopsis thaliana with 141 samples.

Results

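Alpha expansins are small secreted proteins of the plant cell wall that loosen the contacts between cellulose and xyloglucan when the wall is acid, so that a cell under turgor can enlarge. They are encoded by a gene family, and single members serve particular cells: EXPA7 and EXPA18 act in growing root hairs, EXPA1 is known from guard cells and is induced by auxin, EXPA10 from growing leaves and petioles, and EXPA5 from growth promoted by brassinosteroid. Growth and immune signalling are coupled in plants, and perception of flg22, a peptide of bacterial flagellin, arrests seedling growth through a pathway that includes the mitogen-activated protein kinases MPK3, MPK6 and MPK4. The 10 loci described here, EXPA1, EXPA3, EXPA4, EXPA5, EXPA6, EXPA7, EXPA8, EXPA10, EXPA11 and EXPA18, were taken by their locus identifiers from the 32678 loci counted in the time course and in sets B1, B2 and B3, and from the 37336 loci counted in set B4 and in the adult shoots. The other 16 alpha expansins of the annotation were kept as a list for comparison.

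RNA was sequenced in 141 Arabidopsis thaliana libraries that fall into 49 groups, 39 of seedlings and 10 of adult shoots. In the time course, wild-type (WT) seedlings aged 7 d were collected 5, 10, 15, 30 and 60 min after addition of 100 nM flg22, and those at 0 min had water, with 2 libraries per group. In sets B1 to B4, each group had 3 libraries of seedlings aged 7 d, grown in liquid medium and pooled 8 per RNA, of WT or of the lines impk36 and impk4, which the labels name but do not describe. These seedlings were held for 15 min in 10 uM 3MBiP, a bulky inhibitor of kinases made sensitive to it, except for 1 WT group of set B1 that received 0.1% DMSO. They were then left unstimulated or given 20 uM abscisic acid (ABA), 50 uM methyl jasmonate (MeJA) or 100 nM pep3 (an endogenous danger peptide) in set B1, 2 nM flg22 for 30 min or 1 h or wounding by forceps in set B2, UVB (40 W) in set B3, or 10 mM H2O2 in set B4. Stimuli other than the 30 min flg22 lasted 1 h, and sets B3 and B4 hold no unstimulated libraries of the 2 lines. The adult groups were shoots of 4-week-old soil-grown plants, 3 libraries each: impk4 sprayed with 1% DMSO (mock) or 100 uM 3MBiP and sampled at 3, 6, 12 and 24 h, impk4 at 0 h without spray, and mpk4 without spray. The labels do not say that replicates came from separate experiments, so p-values measure the spread between these libraries, which may be technical.

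Each library held between 13.9 and 40.4 M reads assigned to genes, with a median of 23.5 M, and between 2407 and 32116 of them fell on the 10 loci. All 10 loci passed the filter on low counts in each of the 6 sets, and 21 libraries, all adult, had a member at 0 counts. Levels are given as counts per M assigned reads (CPM, on library sizes scaled by TMM) within a set, the 6 sets were normalised separately, and a gene is called where its adjusted p in edgeR's quasi-likelihood test was under 0.05. Log2 fold changes carry their standard error. The transcripts of the kinases in the labels differed between the lines. MPK4 averaged 1503 CPM in unsprayed adult impk4 and 22.5 CPM in mpk4, and the adult groups hold no WT. In unstimulated seedlings of set B1 given 3MBiP, MPK4 averaged 1496 CPM in impk4 and 61.6 CPM in WT. In the same set MPK6 averaged 308.2 CPM in impk36 and 58.6 CPM in WT, whereas MPK3 averaged 16.9 CPM in impk36 and 60.5 CPM in WT. Whole seedlings and shoots mix many cell types, so fewer cells of a type and less RNA per cell cannot be told apart in any value below.

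The 10 genes lie on chromosomes 1, 2 and 3, have 3 or 4 exons in the TAIR10.1 annotation of RefSeq and encode 252 to 275 residues. EXPA1 (AT1G69530, chr1:26141726-26143538, plus strand) and EXPA10 (AT1G26770, chr1:9259432-9261313, plus strand) have the most alike coding sequences, identical at 79.7% of aligned bases. EXPA7 (AT1G12560, chr1:4276505-4277969, plus strand) and EXPA18 (AT1G62980, chr1:23331563-23333246, plus strand) share 75.4%, and the longest identical stretch between any 2 members is 32 bases, between EXPA1 and EXPA10. The remaining members are EXPA3 (AT2G37640), EXPA4 (AT2G39700), EXPA5 (AT3G29030), EXPA6 (AT2G28950), EXPA8 (AT2G40610) and EXPA11 (AT1G20190).

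The 250 bases upstream of these 2 pairs are shown because each pair shares a motif there. They were read from the TAIR10.1 genome of RefSeq, 5′ to 3′ on the plus strand, which is the strand of all 4 genes. Capitals mark CACATG, searched on both strands, in EXPA1 (chr1:26141476-26141725) and EXPA10 (chr1:9259182-9259431), and the root hair element in EXPA7 (chr1:4276255-4276504) and EXPA18 (chr1:23331313-23331562).
EXPA1: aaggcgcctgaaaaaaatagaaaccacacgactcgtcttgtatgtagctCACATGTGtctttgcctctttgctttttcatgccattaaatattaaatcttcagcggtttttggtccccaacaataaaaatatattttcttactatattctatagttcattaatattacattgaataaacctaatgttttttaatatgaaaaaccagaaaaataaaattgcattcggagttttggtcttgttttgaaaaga
EXPA10: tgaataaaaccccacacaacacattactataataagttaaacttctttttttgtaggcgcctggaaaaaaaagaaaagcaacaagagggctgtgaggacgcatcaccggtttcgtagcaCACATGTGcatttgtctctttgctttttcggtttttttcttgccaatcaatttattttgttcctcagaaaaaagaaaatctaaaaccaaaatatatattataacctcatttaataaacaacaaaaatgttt
EXPA7: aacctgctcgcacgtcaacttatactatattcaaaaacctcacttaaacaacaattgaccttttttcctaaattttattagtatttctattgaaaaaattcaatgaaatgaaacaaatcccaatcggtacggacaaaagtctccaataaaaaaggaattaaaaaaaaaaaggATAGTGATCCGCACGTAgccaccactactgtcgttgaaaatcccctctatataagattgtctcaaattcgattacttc
EXPA18: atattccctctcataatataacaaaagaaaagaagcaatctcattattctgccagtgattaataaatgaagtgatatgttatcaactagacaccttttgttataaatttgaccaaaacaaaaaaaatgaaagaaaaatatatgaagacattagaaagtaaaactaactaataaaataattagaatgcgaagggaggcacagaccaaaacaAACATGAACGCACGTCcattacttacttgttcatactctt

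In EXPA1 and EXPA10 the CACATG on one strand overlaps that on the other, so that the capitals form a palindrome, at -201 to -194 in EXPA1 and at -131 to -124 in EXPA10, counted back from the gene's start. EXPA11 holds CACATG once, at -65 to -60, and none of the other 7 members holds it in this window. CACATG was present in 11.1% of the 27443 upstream windows of the same length. The root hair element, a degenerate motif known from genes of root hair cells, lies at -78 to -62 in EXPA7 and at -40 to -25 in EXPA18, and 0.754% of all windows hold a match. Of the other motifs searched on both strands, CACGTG was present in none of the 10 members and in 6.49% of all windows. TTGAC was present in 44.9% of windows, TGTCTC in 10.9%, CGTGTG in 5.37%, CGTGCG in 1.57%, CGCGTT in 2.59% and TATAAA in 47.3%. CGTGCG lies inside the root hair element in both EXPA7 and EXPA18. A match is a description of these letters and was not tested as a binding site.

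Per kilobase of exon, EXPA1 had the highest level of the 10 in every unstimulated WT seedling group. In WT seedlings of the time course at 0 min its level was 133.6 CPM per kb, followed by EXPA6 at 37.4. The lowest there were EXPA8 at 4.93 and EXPA5 at 4.27 CPM per kb. EXPA3 and EXPA4, at 21.0 and 20.8 CPM per kb, overlapped between libraries, and no other neighbours in the order did. EXPA8 was the lowest in unstimulated WT seedlings of sets B1 to B4, at 1.61 to 4.16 CPM per kb. In unsprayed adult impk4 shoots EXPA8 came next after EXPA1, at 57.6 and 92.2 CPM per kb, although the libraries of EXPA1, EXPA8, EXPA11, EXPA6 and EXPA5 overlapped from each to the next. EXPA7 and EXPA18 were at 0 counts in those shoots.

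In the time course the alpha expansins were lower late after 100 nM flg22. At 5 and 10 min edgeR called 0 of the 10, with 2 at an unadjusted p under 0.05 at each time and 0 called by DESeq2, against 0.963% and 9.77% of all genes called. At 15 min EXPA5 alone was called, higher by 0.58 ± 0.13, where 12.6% of genes were called higher and 9.25% lower. At 30 min 5 members fell and EXPA5 rose, against 20.5% of all genes lower and 22.1% higher. At 60 min 6 fell and EXPA7 rose, against 33.6% of genes lower and 32.7% higher, and the median log2 fold change was -0.85 over the 10 and -0.03 over all genes.

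EXPA1 read 181.8 and 231.9 CPM at 0 min, 105.4 and 101.4 CPM at 30 min, and 19.0 and 17.3 CPM at 60 min. The libraries did not overlap between these times, and the log2 fold change against 0 min was -1.0 ± 0.11 at 30 min (adjusted p = 2.1e-05) and -3.51 ± 0.13 at 60 min (adjusted p = 8.2e-10). EXPA8 stood at 6.10 and 6.97 CPM at 0 min, at 3.77 and 4.16 CPM at 30 min, and at 0.839 and 0.610 CPM at 60 min, again without overlap. Its log2 fold changes were -0.71 ± 0.15 and -3.16 ± 0.22. EXPA10 reached its low level earlier. It read 20.4 and 20.2 CPM at 0 min, 9.93 and 11.7 CPM at 30 min, and 11.2 and 12.1 CPM at 60 min, and the 60 min libraries overlapped those at 30 min. EXPA10 was not called between 30 and 60 min (0.10 ± 0.11), whereas EXPA1 fell by 2.51 ± 0.13 more in that interval. Between 30 and 60 min 7 members fell and EXPA7 rose, against 29.9% of genes lower and 26.7% higher. Of these, EXPA7 (0.41) and EXPA4 (-0.29) were not called without replicate 2 at 30 min or replicate 1 at 60 min (0.27 to 0.28 and -0.26 to -0.17).

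EXPA3 and EXPA6 were lower mainly at the last time. EXPA3 read 37.3 and 37.7 CPM at 0 min, 30.9 and 34.5 CPM at 30 min, and 14.0 and 15.6 CPM at 60 min, and it was called at 60 min only (-1.34 ± 0.09). EXPA6 fell by 0.23 ± 0.07 at 30 min and by 1.41 ± 0.08 at 60 min, from 59.0 and 60.1 CPM to 21.3 and 23.5 CPM. EXPA11 fell by 0.43 ± 0.08 and by 0.91 ± 0.09. EXPA5 took a course of its own: it read 5.91 and 6.29 CPM at 0 min, 9.98 and 9.48 CPM at 30 min, and 5.28 and 5.54 CPM at 60 min, a rise of 0.67 ± 0.13 at 30 min followed by no call at 60 min (-0.17 ± 0.14). EXPA4 and EXPA18 were called at no time against 0 min. The rise of EXPA7 at 60 min, 0.34 ± 0.12, was not called without replicate 2 at 0 min or replicate 1 at 60 min (0.21 to 0.26), and the fall of EXPA6 at 30 min was not called without replicate 2 at 0 min or either 30 min library (-0.23 to -0.21). Water was given at 0 min alone, so that time in the dish and flg22 cannot be told apart in this set.

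**Figure D1:**
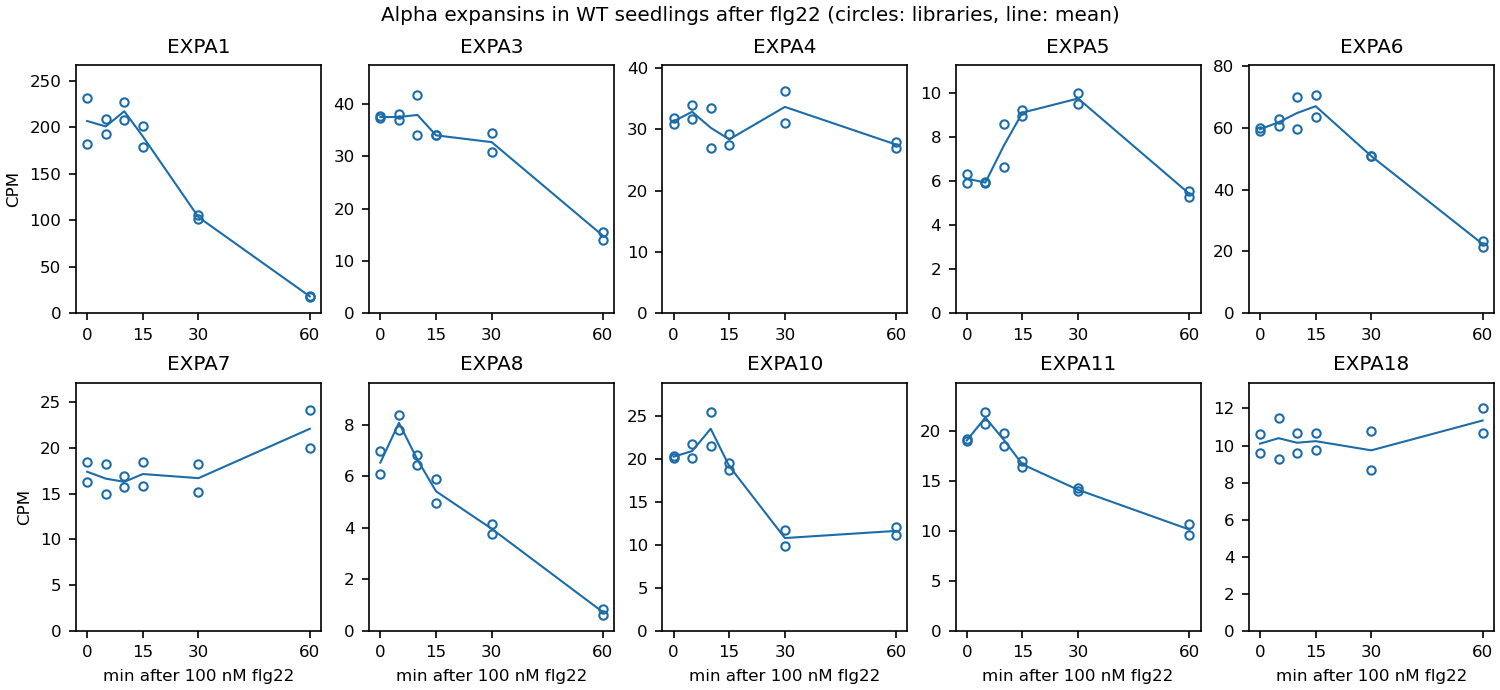
CPM of the 10 alpha expansins (vertical axes, each from 0) against minutes after 100 nM flg22 in WT seedlings, with 1 circle per library and a line through the mean of 2 libraries. EXPA1 drops from 181.8 and 231.9 CPM to 19.0 and 17.3 CPM, EXPA10 is low from 30 min on, and EXPA5 is highest at 30 min.

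In set B2, 2 nM flg22 was given after 3MBiP and compared with WT that received 3MBiP alone. After 30 min 6 members fell and none rose, against 21.1% of genes lower and 22.1% higher. After 1 h 7 fell and EXPA4 and EXPA7 rose, against 30.6% lower and 29.8% higher, and the median over the 10 was -1.34 against -0.01 over all genes. EXPA1 read 330.5, 439.7 and 383.5 CPM without stimulus, 180.1, 212.4 and 191.4 CPM after 30 min, and 23.1, 25.7 and 22.6 CPM after 1 h. No libraries overlapped between these groups, and its log2 fold changes were -0.98 ± 0.13 and -4.02 ± 0.15 (adjusted p = 1.1e-18 at 1 h). EXPA10 read 47.0, 53.3 and 46.6 CPM without stimulus and 19.0, 24.8 and 19.8 CPM after 30 min. It was the member with the largest fall at 30 min, -1.21 ± 0.08, and it reached -1.69 ± 0.09 at 1 h. EXPA8 was not called at 30 min (0.31 ± 0.21) and fell by 3.14 ± 0.34 at 1 h, from 3.13, 1.86 and 2.71 CPM to 0.191, 0.377 and 0.285 CPM. Between 30 min and 1 h 7 members fell and EXPA7 rose, against 25.3% of genes lower and 24.5% higher, and the rise of EXPA7 (0.39) was not called without 1 h replicate 2 (0.26).

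EXPA5 went down in this set, from 21.7, 18.4 and 17.3 CPM to 15.9, 12.7 and 14.5 CPM at 30 min (-0.41 ± 0.10) and 5.93, 5.77 and 6.66 CPM at 1 h (-1.62 ± 0.11). At 30 min of 100 nM flg22 in the time course it had gone up by 0.67. Dose, 3MBiP and starting level (6.10 CPM in the time course and 19.2 CPM here, in sets normalised separately) differ between these values, and the difference was not tested. EXPA3, EXPA6 and EXPA11 fell by 1.35 ± 0.09, 1.33 ± 0.09 and 0.90 ± 0.13 at 1 h, and EXPA18 was not called at 1 h (-0.30 ± 0.13). At 30 min, the falls of EXPA11 and EXPA18 were not called without 3MBiP replicate 1, without flg22 replicate 2 or 3, or, for EXPA18, without 3MBiP replicate 3 (-0.28 to -0.12 and -0.38 to -0.33). At 1 h, the rise of EXPA7 (0.36 ± 0.12) was not called without flg22 replicate 2 (0.23), and that of EXPA4 (0.24 ± 0.09) not without replicate 2 or 3 of either group (0.14 to 0.25).

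Pep3 lowered 8 members after 1 h and raised EXPA4, against 30.4% of genes lower and 32.2% higher in that comparison. EXPA8 read 4.94, 3.14 and 3.56 CPM in WT with 3MBiP alone and 0.109, 0.256 and 0.251 CPM with pep3. The groups did not overlap, and the fall of 4.15 ± 0.38 (adjusted p = 1.3e-11) was the largest of the 10 under any stimulus in WT seedlings. EXPA11 went from 22.7 to 25.8 CPM over its 3 control libraries to 6.90, 7.98 and 4.67 CPM (-1.92 ± 0.15). EXPA3 went from 71.3, 64.3 and 73.5 CPM to 19.8, 19.7 and 17.9 CPM (-1.87 ± 0.10). Both of these changed more than EXPA1, which fell by 1.47 ± 0.11 from 316.6, 342.4 and 351.9 CPM to 115.4, 136.0 and 114.7 CPM. EXPA4 rose by 0.47 ± 0.11, from 30.1, 43.0 and 30.3 CPM to 48.4, 49.1 and 45.3 CPM. EXPA7 was not called (0.10 ± 0.20), while EXPA18 fell by 0.64 ± 0.17.

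Under ABA, MeJA and wounding EXPA1 fell while EXPA10, its closest relative by coding sequence, rose. ABA lowered 5 members and raised 1, against 13.7% of genes lower and 16.7% higher. MeJA lowered 6 and raised 1, against 16.1% in each direction. Wounding lowered 6 and raised 1, against 24.8% lower and 28.7% higher. ABA, MeJA and pep3 share their WT control libraries, as wounding and flg22 share theirs in set B2.

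With ABA, EXPA1 read 52.8, 53.0 and 58.2 CPM, below each of its control libraries at 316.6 to 351.9 CPM, a fall of 2.62 ± 0.11 (adjusted p = 3.1e-18). EXPA10 read 54.7, 58.8 and 55.8 CPM against 48.3, 46.1 and 46.5 CPM, a rise of 0.26 ± 0.09 without overlap. EXPA8 fell by 2.61 ± 0.33, to 1.14, 0.520 and 0.253 CPM, and without ABA replicate 1, the highest of these, by 3.32. EXPA5 and EXPA6 fell by 0.62 ± 0.15 and 0.31 ± 0.06, and EXPA7 by 0.60 ± 0.22. Of the 15 other root hair genes 5 fell and 0 rose with ABA. Their summed level without CSLD3 ran from 157.7 to 184.6 CPM without ABA and from 118.8 to 135.3 CPM with ABA, which was not tested as a part of the result. The list did not have more genes lower than higher under every WT stimulus. With MeJA 5 fell and 3 rose, with pep3 5 fell and 4 rose, and with wounding 0 fell and 5 rose. The summed level without CSLD3 ran from 118.9 to 151.7 CPM with MeJA and from 101.7 to 130.9 CPM with pep3, both below the control. With flg22 in set B2, 4 fell and 1 rose at 30 min, and 2 fell and 4 rose at 1 h. In the time course 2 fell and 2 rose at 30 min, and 1 fell and 6 rose at 60 min. In set B2 the sum ran from 153.5 to 166.5 CPM in the control, 121.8 to 133.1 CPM at 30 min and 136.9 to 187.2 CPM at 1 h. In the time course it ran from 185.6 to 202.1 CPM at 0 min, 154.9 to 195.0 CPM at 30 min and 196.0 to 247.6 CPM at 60 min. Its part in the falls of EXPA18 with pep3 and at 30 min of 2 nM flg22 was not tested. EXPA3, which had fallen with both peptides, was not called with ABA (0.01 ± 0.09). The rise of EXPA10 was not called without 3MBiP replicate 2 or 3 or ABA replicate 2 (0.23 to 0.26), and the fall of EXPA7 not without 3MBiP replicate 2 or any ABA library (-0.65 to -0.42).

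With MeJA, EXPA1 read 134.7, 123.6 and 141.4 CPM (-1.34 ± 0.11) and EXPA10 56.3, 57.1 and 57.2 CPM (0.28 ± 0.09), neither overlapping its control. EXPA8 fell by 1.92 ± 0.30 to between 0.928 and 1.21 CPM. EXPA11, EXPA6 and EXPA4 fell by 0.77 ± 0.13, 0.66 ± 0.06 and 0.53 ± 0.12. This was the only WT stimulus comparison against unstimulated libraries in which EXPA4 was called lower. The fall of EXPA5, 0.44 ± 0.15, was not called without 3MBiP replicate 1 or MeJA replicate 2 or 3 (-0.45 to -0.27).

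Wounding took EXPA1 to 91.3, 100.6 and 95.1 CPM (-2.01 ± 0.13) from 330.5 to 439.7 CPM. EXPA10 rose to 80.2, 86.5 and 78.8 CPM from 47.0, 53.3 and 46.6 CPM, by 0.74 ± 0.07 (adjusted p = 7.3e-11), the largest rise of EXPA10 among the stimuli. The groups did not overlap for either gene. EXPA5 and EXPA6 fell by 1.52 ± 0.11 and 1.36 ± 0.09. EXPA8 fell by 1.97 ± 0.29 and EXPA11 fell by 0.69 ± 0.12. EXPA3, EXPA4 and EXPA18 were not called, at -0.18 ± 0.09, 0.02 ± 0.10 and -0.07 ± 0.13. The fall of EXPA7, 0.31 ± 0.13, was not called without any 1 of the control libraries or without wounding replicate 2 or 3 (-0.31 to -0.24). The 15 other root hair genes did not fall with EXPA7 here, as 0 fell and 5 rose. Their summed level without CSLD3 ran from 153.5 to 166.5 CPM in the control and from 162.2 to 235.1 CPM with wounding. Its part in the result was not tested.

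UVB lowered 9 members, all but EXPA4 (0.31 ± 0.15), against 21.5% of genes lower and 19.3% higher, and H2O2 lowered 8, against 18.9% lower and 21.1% higher. EXPA5 fell most with UVB, from 23.1 to 25.7 CPM over its 3 control libraries to between 8.30 and 10.0 CPM (-1.40 ± 0.10). EXPA3 went from 41.7, 55.1 and 41.6 CPM to 17.0, 17.1 and 18.7 CPM (-1.39 ± 0.12). Neither gene's groups overlapped. The root hair genes EXPA18 and EXPA7 fell by 1.23 ± 0.23 and 0.70 ± 0.19, and of 15 other root hair genes 12 fell and 0 rose with UVB. The summed level of those 15 without CSLD3 ran from 155.6 to 285.1 CPM without stimulus and from 74.9 to 91.5 CPM with UVB, and its part in the result was not tested. Unstimulated replicate 2 was the highest of its group for EXPA1, EXPA3, EXPA4, EXPA5, EXPA7, EXPA8, EXPA11 and EXPA18. Without it the fall of EXPA8 was 0.53 instead of 1.25 and was not called, nor without UVB replicate 1 or 2 (-1.15 to -0.53). EXPA1 (-0.82 ± 0.24) was not called without unstimulated replicate 2 or UVB replicate 2 or 3 (-0.84 to -0.59), and EXPA10 (-0.32 ± 0.11) not without unstimulated replicate 2 or 3 or UVB replicate 1 or 2 (-0.33 to -0.24).

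With H2O2 EXPA1 read 160.5, 201.3 and 133.1 CPM against 447.1, 472.8 and 348.8 CPM, a fall of 1.36 ± 0.23 without overlap. The counts of unstimulated replicate 3 differed from those of replicates 1 and 2 by a chi-square per degree of freedom of 17.2 and 14.6. Between replicates 1 and 2 this value was 4.45. EXPA5 and EXPA18 fell by 1.02 ± 0.12 and 0.97 ± 0.13, EXPA10 and EXPA7 by 0.78 ± 0.06 and 0.77 ± 0.10. Of the 15 other root hair genes 7 fell and 1 rose with H2O2, and their summed level without CSLD3 ran from 193.2 to 235.7 CPM without it and from 156.5 to 194.8 CPM with it, a part in the falls of EXPA7 and EXPA18 that was not tested. EXPA6, EXPA3 and EXPA11 fell by 0.60 ± 0.07, 0.54 ± 0.10 and 0.43 ± 0.06. EXPA8 was not called with H2O2 (-0.17 ± 0.22), and its 95% interval ran from -0.60 to 0.26. EXPA4 was not called (0.11 ± 0.10).

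Guard cells, in which EXPA1 is known to act, were followed by 8 genes of that cell type. With 2 nM flg22 at 1 h 7 of them fell and 0 rose, against 30.6% of genes lower and 29.8% higher. MYB60 was among those that fell (-1.21 ± 0.07), and the summed level of the 8 went from 76.9 to 82.0 CPM down to 50.2 to 54.9 CPM. With UVB 6 fell and 0 rose, against 21.5% of genes lower and 19.3% higher. The sum went from 73.7 to 84.2 CPM down to 48.5 to 54.7 CPM with UVB. With ABA 5 fell and 0 rose, against 13.7% of genes lower and 16.7% higher, with KAT2, a guard cell potassium channel, down by 1.84 ± 0.13. At 60 min of 100 nM flg22 4 fell and 1 rose, against 33.6% of genes lower and 32.7% higher. With wounding 2 fell and 1 rose (24.8% and 28.7% of genes), and with pep3 3 fell and 2 rose (30.4% and 32.2%). With MeJA 0 fell and 2 rose (16.1% in each direction), and with H2O2 1 fell and 0 rose (18.9% and 21.1%). EXPA1 fell in all of these comparisons, and the part of guard cells in its fall was not tested.

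**Figure D2:**
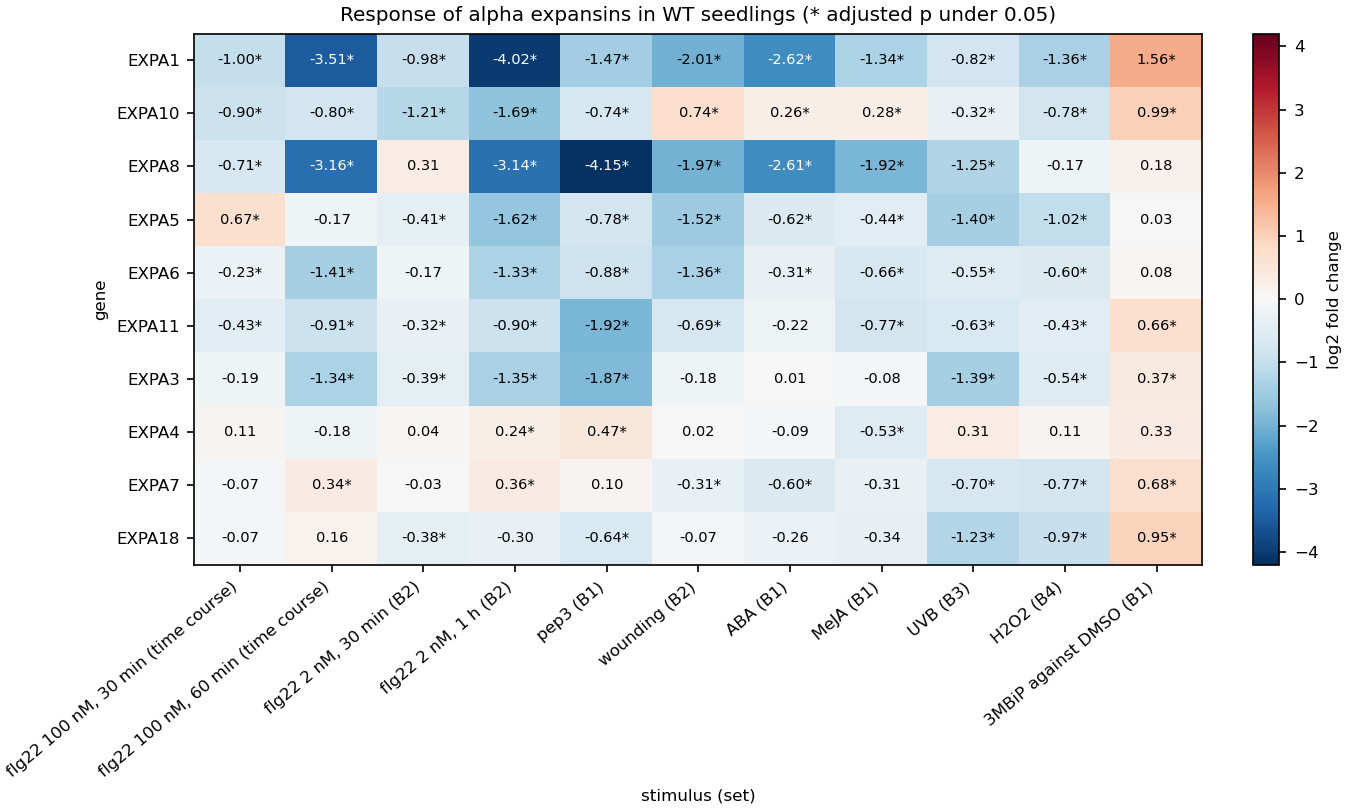
Log2 fold change of each alpha expansin (rows) under each stimulus in WT seedlings (columns, with the set in brackets), and in the last column for 3MBiP against DMSO, with an asterisk where the adjusted p was under 0.05. EXPA1 is lower under every stimulus shown, EXPA10 is higher under wounding, ABA and MeJA, and the EXPA4 row stays between -0.53 and 0.47.

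3MBiP itself raised alpha expansins in WT seedlings. Against 0.1% DMSO, 6 of the 10 were higher and none lower, where 4.62% of all genes were called higher and 4.03% lower, and the median was 0.51 over the 10 and 0.00 over all genes. EXPA1 read 127.4, 108.8 and 107.3 CPM with DMSO and 316.6, 342.4 and 351.9 CPM with 3MBiP, a rise of 1.56 ± 0.11 (adjusted p = 2.1e-11). EXPA10 went from 24.9, 23.5 and 22.6 CPM to 48.3, 46.1 and 46.5 CPM (0.99 ± 0.09). The groups did not overlap for either gene. EXPA18, EXPA11 and EXPA3 rose by 0.95 ± 0.17, 0.66 ± 0.13 and 0.37 ± 0.09. The rise of EXPA7, 0.68 ± 0.21, was not called without any 1 DMSO library or 3MBiP replicate 2 or 3 (0.51 to 0.74), and that of EXPA3 not without DMSO replicate 1 (0.31). DMSO was given in set B1 alone, and all stimulated libraries of sets B1 to B4 had 3MBiP. EXPA1 averaged 337.0, 384.5 and 422.9 CPM in WT with 3MBiP in sets B1, B2 and B4 but 103.5 CPM in set B3, in sets normalised separately.

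The 2 lines differed from WT without stimulus in set B2 more than in set B1. In set B1, EXPA4 was the 1 member called in impk36, lower by 0.63 ± 0.12, where 2.41% of genes were lower and 1.15% higher. In impk4 edgeR called 0 of the 10 there, with 1 at an unadjusted p under 0.05, 0 by DESeq2 and 0.0801% of genes called. In set B2, impk36 had 5 members higher and 3 lower, against 14.7% of genes higher and 16.6% lower. There, impk4 had 5 higher and 2 lower, against 8.38% higher and 8.24% lower.

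EXPA8 in set B2 read 3.13, 1.86 and 2.71 CPM in WT, 13.1, 9.15 and 12.3 CPM in impk36, and 12.3, 9.01 and 11.1 CPM in impk4. Both lines lay above WT without overlap, by 2.16 ± 0.17 and 2.06 ± 0.17. Both were compared with the same WT libraries, so a like shift in the 2 lines is not 2 independent results. EXPA11 read 27.3, 17.7 and 19.4 CPM in WT, 54.1, 49.7 and 47.0 CPM in impk36 and 46.6, 42.8 and 38.7 CPM in impk4 (1.23 ± 0.11 and 1.00 ± 0.11). EXPA5, EXPA3 and EXPA6 were higher in both lines, by 0.46 to 0.81. In set B1 the same contrasts gave -0.73 ± 0.26 and -0.26 ± 0.25 for EXPA8 and 0.11 ± 0.13 and 0.01 ± 0.13 for EXPA11, none of them called. The difference between the sets was not tested, and the labels give no difference beyond the set name. In set B2 between 14.4% and 16.5% of reads were not unique in unstimulated impk36, against 6.88% to 7.63% in WT and 6.91% to 7.01% in impk4, and in set B1 between 6.01% and 6.87% in impk36 against 6.07% to 9.68% in WT. The part of this in the line differences was not tested.

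EXPA4 was lower in impk36 than in WT in all 4 sets, by 0.63 and 0.59 without stimulus, by 0.60 ± 0.15 with UVB and by 0.45 ± 0.10 with H2O2. In set B2 it read 18.8, 18.8 and 18.0 CPM in impk36 and 30.2, 25.4 and 27.9 CPM in WT. The groups did not overlap in any of these 4 comparisons. The calls in set B1 and with UVB were lost when the compared groups were fitted alone, at -0.63 and -0.60. The call with UVB was also lost without replicate 1 or 2 of either group (-0.64 to -0.47), and that with H2O2 without WT replicate 1 or impk36 replicate 1 or 2 (-0.43 to -0.39). In the B2 comparison without stimulus, EXPA7 (-0.32 ± 0.12) and EXPA1 (-0.35 ± 0.13) lost their calls in impk36 without several single libraries: EXPA7 without any WT library or impk36 replicate 1 or 3 (-0.33 to -0.26), and EXPA1 without WT replicate 2 or 3 or impk36 replicate 1 or 3 (-0.34 to -0.23). In impk4 EXPA7 was lower by 0.54 ± 0.13, and EXPA1 (-0.45 ± 0.13) lost its call without WT replicate 2 or impk4 replicate 3 (-0.43 to -0.34).

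With UVB, impk36 also had EXPA3 and EXPA6 higher than WT (0.52 ± 0.12 and 0.36 ± 0.09) and EXPA10 lower (-0.57 ± 0.11), against 3.63% of genes higher and 6.10% lower. EXPA3 was not called without replicate 1 or 2 of WT or replicate 1 or 3 of impk36 (0.44 to 0.50), and EXPA6 not without WT replicate 3 or impk36 replicate 1 (0.29 to 0.31). With H2O2, impk36 had EXPA11 and EXPA18 higher (0.31 ± 0.06 and 0.43 ± 0.13) and EXPA10 lower (-0.22 ± 0.06), against 3.01% higher and 8.02% lower. EXPA18 was not called without WT replicate 1 or 2 or any impk36 library (0.33 to 0.45), and EXPA10 not without replicate 1 of either group (-0.22 to -0.19). In impk4 edgeR called 0 of the 10 with UVB and with H2O2, with 2 and 4 at an unadjusted p under 0.05, 1 and 0 called by DESeq2, and 0.696% and 1.19% of genes called. Line and response cannot be told apart in these 2 sets.

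For sets B1 and B2 the response of each line was compared with that of WT by the interaction term, given as the line's log2 response minus that of WT. Within a set, the 2 lines share the WT libraries. ABA and MeJA gave 0 called members in either line by edgeR and by DESeq2, with 2 and 3 at an unadjusted p under 0.05 for ABA in impk36 and impk4 and with 3 and 0 for MeJA, and 0% of all genes called for ABA in both lines and 0.0141% and 0.00471% for MeJA in impk36 and impk4. For pep3, 5 members differed in impk36, against 16.1% of genes, and 0 in impk4, where 3 had an unadjusted p under 0.05, DESeq2 called 0 and 0.702% of genes were called. For flg22 at 30 min no member was called in either line by edgeR or DESeq2, with 2 in impk36 and 1 in impk4 at an unadjusted p under 0.05, against 6.59% and 3.21% of genes.

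With pep3, EXPA1 read 67.1, 50.4 and 45.5 CPM in impk36, from 321.7, 375.5 and 300.2 CPM without it, and so fell further than in WT, by 1.15 ± 0.15 (adjusted p = 1.3e-06). EXPA5 read 5.25, 4.36 and 4.86 CPM from 19.6, 19.5 and 17.3 CPM and fell further by 1.18 ± 0.23. For EXPA3, EXPA11 and EXPA18 the interaction was positive. EXPA3 went from 78.3, 84.7 and 71.9 CPM to 32.5, 36.3 and 34.2 CPM in impk36, a smaller fall than in WT by 0.69 ± 0.13. EXPA11 went from 25.6, 28.2 and 24.3 CPM to 13.2, 13.8 and 13.6 CPM, also a smaller fall (0.98 ± 0.20). EXPA18 read 12.5, 11.8 and 12.2 CPM without pep3 and 12.8, 12.5 and 14.0 CPM with it (0.74 ± 0.24). That call was lost without WT 3MBiP replicate 2, WT pep3 replicate 3, impk36 replicate 2 or 3 without stimulus, or impk36 pep3 replicate 3 (0.59 to 0.74). Replicate 3 of impk36 with pep3 stood apart from its group: 42.4% of its reads were not unique, against 5.70% and 5.73% in the others, and its counts differed from theirs by a chi-square per degree of freedom of up to 22.2, against 3.73 between them. WT pep3 replicate 3 stood apart by the same measure (17.4 and 14.1 against 2.62), and the 3 impk4 pep3 libraries differed among themselves by 9.20 to 22.7. Without WT pep3 replicate 3, 9 members were still called in WT, EXPA8 at -4.36 and EXPA1 at -1.43 among them. Leaving out either one gave -1.04 or -1.19 for EXPA1, -1.19 or -1.23 for EXPA5, 0.68 or 0.63 for EXPA3 and 0.98 or 0.75 for EXPA11, all still called, and 4 called members in each case.

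For flg22 at 1 h, 2 members differed in impk36 and 3 in impk4, against 15.1% and 10.5% of genes. EXPA5 read 6.91, 4.75 and 4.79 CPM in impk36 and 5.93, 5.77 and 6.66 CPM in WT, but it started from 31.9, 34.8 and 33.8 CPM in impk36, and its fall was larger there by 1.03 ± 0.16. EXPA3 fell less than in WT in both lines, by 0.59 ± 0.13 in impk36 and 0.69 ± 0.13 in impk4. It read 78.9, 65.4 and 63.2 CPM in impk36, 67.0, 58.7 and 59.9 CPM in impk4 and 29.5, 27.9 and 26.6 CPM in WT. EXPA1 and EXPA6 fell less in impk4, by 0.80 ± 0.20 and 0.42 ± 0.12. The call of EXPA6 was lost without any of 10 of the 12 libraries, the exceptions being WT 3MBiP replicate 2 and impk4 flg22 replicate 2 (0.34 to 0.42).

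For wounding, EXPA10 differed in impk36, where it read 49.8, 50.8 and 49.0 CPM from 40.6, 46.7 and 43.2 CPM, a rise smaller than in WT by 0.54 ± 0.11, against 5.44% of genes called. In impk4 6 members differed, against 8.01% of genes. EXPA1 read 104.3, 185.8 and 135.1 CPM with wounding in impk4 and fell less than in WT by 1.02 ± 0.18, a call lost when the compared groups were fitted alone (1.01). EXPA7 read 15.3, 13.3 and 14.7 CPM with wounding, from 10.3, 11.2 and 9.77 CPM, and differed by 0.78 ± 0.18 in the direction of a rise. EXPA8 read 0.780, 1.16 and 0.592 CPM from 12.3, 9.01 and 11.1 CPM and fell further by 1.73 ± 0.42. EXPA5 fell further by 0.60 ± 0.15. EXPA11 (-0.58 ± 0.17) lost its call without WT 3MBiP replicate 2 or 3, WT wounding replicate 1 or 2, impk4 replicate 1 without stimulus or impk4 wounding replicate 3 (-0.59 to -0.48). EXPA3 (-0.38 ± 0.12) lost its call without any of 9 of the 12 libraries, the exceptions being WT 3MBiP replicate 1, WT wounding replicate 2 and impk4 wounding replicate 1 (-0.40 to -0.29). EXPA8, EXPA5, EXPA11 and EXPA3 were each higher in impk4 than in WT before wounding, by 2.06, 0.75, 1.00 and 0.46.

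**Figure D3:**
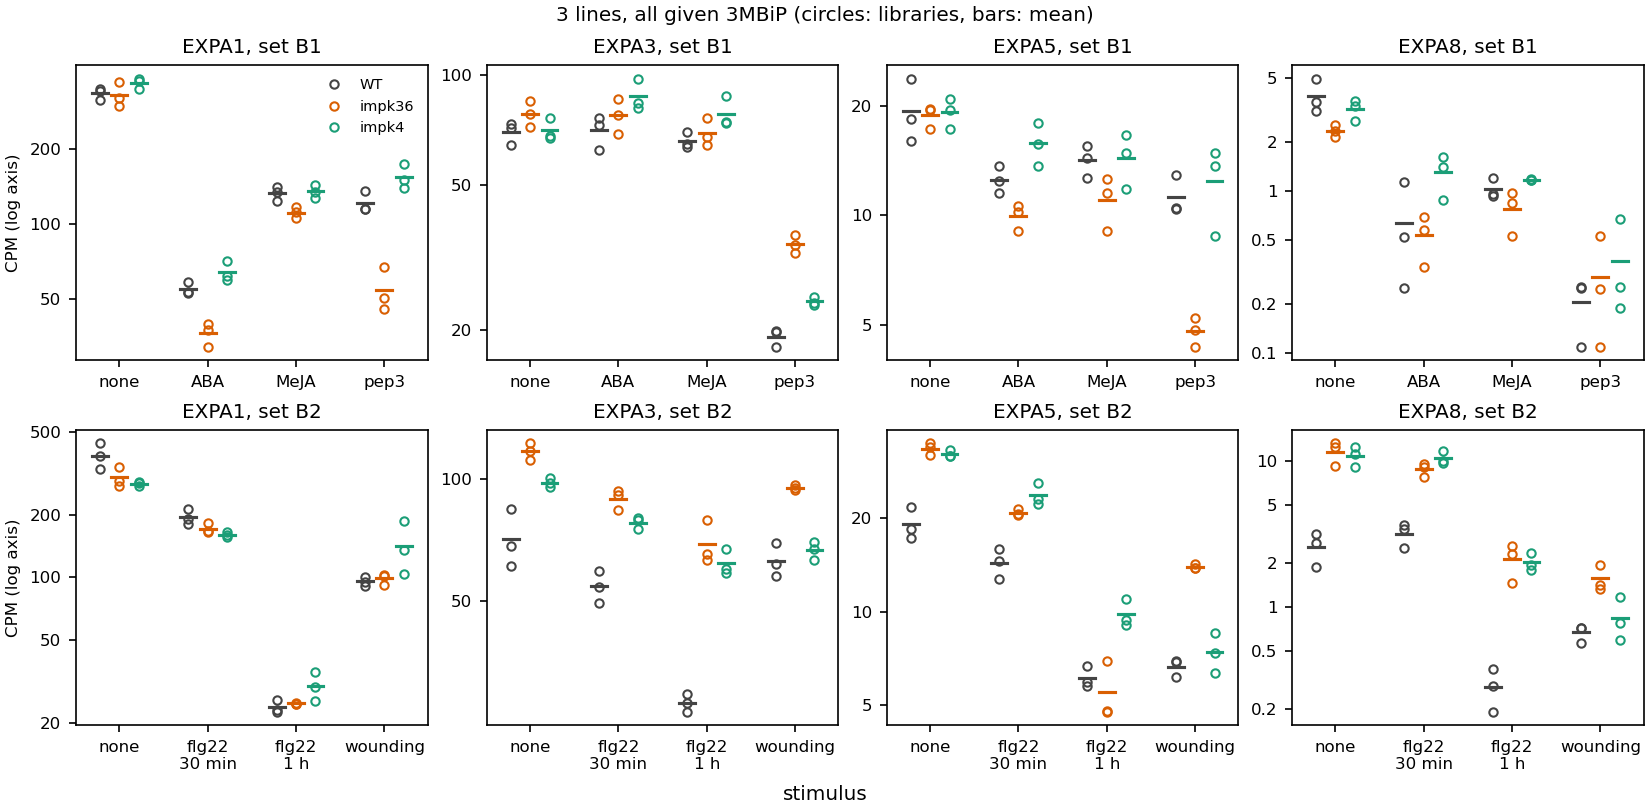
CPM on a log axis, with a range of its own in each panel, of EXPA1, EXPA3, EXPA5 and EXPA8 in WT, impk36 and impk4 seedlings of sets B1 (top) and B2 (bottom), all given 3MBiP, by stimulus, with 1 circle per library and a bar at the mean of 3. With no stimulus EXPA8 lies between 9.01 and 13.1 CPM in both lines and between 1.86 and 3.13 CPM in WT in set B2, and EXPA1 with pep3 is lower in impk36 than in WT.

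In adult impk4 shoots the alpha expansins were compared between 3MBiP and mock at each time. At 3 h and at 6 h edgeR called 0 of the 10, with 0 at an unadjusted p under 0.05 and 0 by DESeq2, against 0.279% and 6.08% of genes. At 12 h 4 members were higher, against 8.48% of genes higher and 5.71% lower, and the median was 0.52 over the 10 and 0.00 over all genes. At 24 h 2 were higher and 1 lower, against 13.7% higher and 11.5% lower. The 4 at 12 h were EXPA7, EXPA18, EXPA3 and EXPA10, and the 2 higher at 24 h were EXPA7 and EXPA18. With the mock near 0, EXPA7 and EXPA18 could only be called higher, and both enter the median.

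EXPA7 and EXPA18, which root hairs use, were called higher at 12 and 24 h. Both passed the filter on low counts through the groups in which they are high, so these calls could go only 1 way and their levels are given as a description. EXPA7 was at 0 counts in the mock libraries at 0, 3, 6 and 24 h and had 2 counts in 1 mock library at 12 h, replicate 3. With 3MBiP it was at 0 at 3 and 6 h, read 1.18, 0.979 and 1.26 CPM at 12 h, and read 1.54, 1.37 and 1.08 CPM at 24 h. EXPA18 had 1 mock library above 0, at 6 h, and read 0.592, 0.638 and 0.644 CPM at 12 h and 0.950, 0.341 and 0.601 CPM at 24 h with 3MBiP. Neither gene's 3MBiP libraries overlapped the mock at 12 or 24 h. At 12 h EXPA7 had 90 counts with 3MBiP and 2 in the mock, a ratio of 47.7 with a 95% counting interval of 12.8 to 399.6. Against a floor of 3 counts over the mock group, EXPA7 was at least 27.8-fold higher at 24 h, and EXPA18 at least 17.3-fold higher at 12 h and at least 13.3-fold higher at 24 h. These bounds cover counting error only.

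Other root hair genes were present in the same libraries. Of the 15 on the list, 9 passed the filter in adult shoots. A gene near 0 in the mock can pass only through the groups in which it is high, so no count of calls is given for them. RSL4, a transcription factor of root hair growth, and LRX1, a root hair wall protein, were at 0 in all mock libraries. With 3MBiP at 12 h RSL4 read 0.508, 0.383 and 0.290 CPM and LRX1 read 1.82, 1.62 and 1.06 CPM. The summed level of the list without CSLD3, which shoots also express, ran from 0.148 to 1.28 CPM in the mock groups and at 3 and 6 h of 3MBiP. It ran from 12.6 to 14.6 CPM at 12 h and from 12.8 to 15.4 CPM at 24 h of 3MBiP. Of the 4 root tissue markers SCR, SHR, GL2 and WER, none was called at 12 h, and SHR was called at 24 h (0.43 ± 0.10). Their summed level ran from 70.7 to 73.3 CPM with 3MBiP and from 73.8 to 79.3 CPM in the mock at 12 h. Most of it came from SCR, GL2 and SHR, which were present in every group of shoots, so this sum cannot show the amount of root. WER, the one of low level in shoots, read 0.386 to 0.468 CPM with 3MBiP and 0.108 to 0.267 CPM in the mock at 12 h, and 0.317 to 0.441 CPM and 0.0404 to 0.211 CPM at 24 h, without overlap at either time. The part of roots or of cells with root hair character in these samples was not tested.

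**Figure D4:**
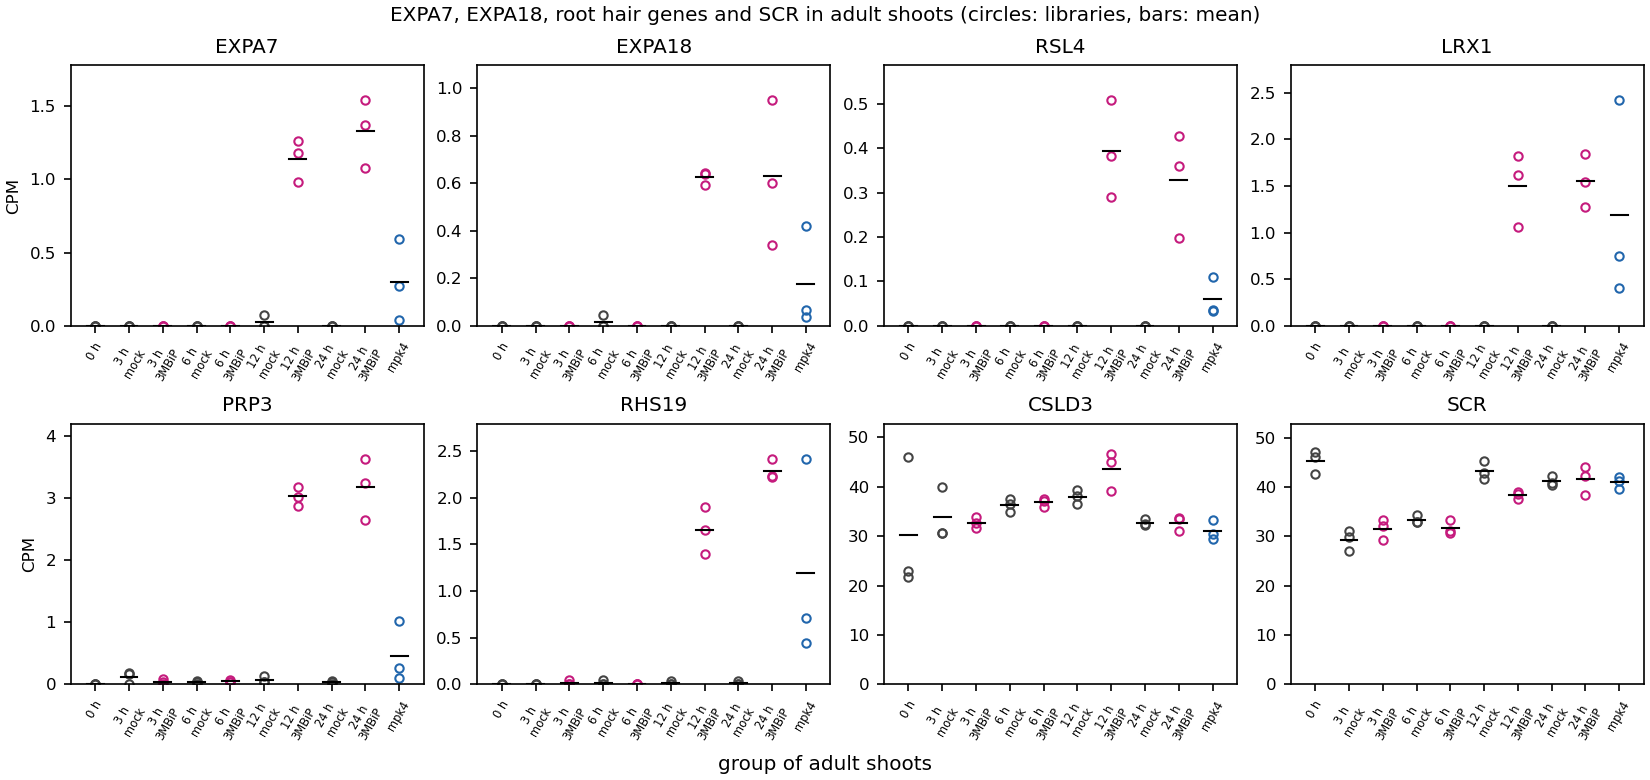
CPM (vertical axes, each from 0) of EXPA7, EXPA18, 5 root hair genes and SCR, from the list of root tissue markers, in the 10 groups of adult shoots, with 1 circle per library and a bar at the mean of 3. EXPA7 and EXPA18 stand above 0 in the 3MBiP groups at 12 and 24 h and in mpk4, with RSL4 and LRX1, whereas CSLD3 and SCR are present in every group.

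Of the other members, EXPA3 rose at 12 h by 0.48 ± 0.12, from 20.4, 28.5 and 22.5 CPM to 33.9, 31.2 and 34.3 CPM, and EXPA10 by 0.59 ± 0.17. EXPA3 was not called without mock replicate 1 (0.39), and EXPA10 not without mock replicate 1 or 2 or 3MBiP replicate 2 (0.44 to 0.57). EXPA6 fell at 24 h by 0.40 ± 0.10, from 161.8, 191.2 and 193.7 CPM to 126.7, 140.6 and 147.3 CPM without overlap. EXPA8 at 12 h read 36.1, 51.2 and 48.6 CPM in the mock and 91.1, 80.4 and 90.8 CPM with 3MBiP. The difference of 0.95 ± 0.38 was not called by edgeR (adjusted p = 0.099). EXPA1 and EXPA11 at 12 h were not called either, at 0.48 ± 0.26 and 0.56 ± 0.31.

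The mock groups themselves differed with time in 7 of the 10 members, all but EXPA4, EXPA7 and EXPA18, in a test over the 5 times in which 84.5% of genes were called. EXPA10 read 2.29, 1.92 and 3.60 CPM in unsprayed shoots at 0 h, against means of 27.4 CPM or more in each mock from 3 to 24 h. EXPA3 read 7.74, 7.84 and 7.24 CPM at 0 h, against means of 23.8 to 39.6 CPM later. EXPA11 was lowest at 12 h, with a mean of 19.1 CPM against 41.6 to 58.1 CPM at the other times. At 24 h, mock replicate 1 was the lowest of its group for EXPA1, EXPA8 and EXPA11, at 340.3, 95.2 and 19.8 CPM. Its counts differed from those of the other 2 by a chi-square per degree of freedom of 49.5 and 62.9, against 13.5 between them. Without it EXPA6 at 24 h fell by 0.48, and the counts of called members at 24 h and over the mock times were unchanged at 3 and 7. The 0 h plants were not sprayed, so time and spray cannot be told apart between 0 h and the rest.

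In mpk4 shoots, compared with unsprayed impk4, 6 members were higher and 3 lower, against 45.5% of genes higher and 32.7% lower, and the median was 0.65 over the 10 and 0.19 over all genes. No sampling time is listed for mpk4, so line and time of sampling cannot be told apart in a comparison with any 1 impk4 group. The 6 and the median over the 10 include EXPA7 and EXPA18, which were at 0 counts in unsprayed impk4 and so could only be higher. EXPA11 read 3.44, 3.37 and 3.39 CPM in mpk4 and 71.5, 40.0 and 62.8 CPM in impk4. It was lower by 4.09 ± 0.37 (adjusted p = 1.2e-09) and lay below every mock library at every time, by 2.49 to 4.08 against the later mocks. EXPA5 read 13.5, 12.2 and 12.9 CPM against 39.9, 57.7 and 36.4 CPM (-1.80), and was lower by 2.14 to 3.02 against the later mocks. EXPA8 read 27.0, 19.9 and 18.7 CPM against 58.2, 33.0 and 137.5 CPM (-1.80), and without impk4 replicate 3 the difference was -1.03. The unsprayed impk4 libraries differed among themselves by a chi-square per degree of freedom of 18.4 to 39.9. EXPA4 was higher by 0.54, and by 0.46 to 0.63 against the later mocks. EXPA1 was not called (-0.11 ± 0.26).

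EXPA10, EXPA6 and EXPA3 were higher in mpk4 than in unsprayed impk4, by 2.36 ± 0.23, 0.79 and 0.77, but lower than in each later mock, by 1.03 to 1.93, 0.48 to 1.04 and 0.88 to 1.61. The direction for these 3 genes therefore depended on the impk4 group chosen. EXPA10 read 16.7, 12.9 and 10.7 CPM in mpk4. EXPA7 read 0.596, 0.0370 and 0.271 CPM and EXPA18 read 0.421, 0.0370 and 0.0678 CPM, at least 6.03-fold and at least 3.48-fold above the floor of unsprayed impk4. Replicate 1 held 17 of the 26 counts of EXPA7 and 12 of the 15 of EXPA18. Without it the bound for EXPA7 was 3.14-fold, and EXPA18 had 3 counts left and was not called. The root hair list without CSLD3 summed to 3.63 to 11.7 CPM in mpk4 and to 0.148 to 0.623 CPM in unsprayed impk4, where 12 of its 15 genes were at 0. The 4 root tissue markers summed to 59.1 to 63.5 CPM in mpk4 and 60.2 to 65.3 CPM in unsprayed impk4, again mostly from SCR, GL2 and SHR, a sum that cannot show the amount of root. WER among them read 1.23, 0.407 and 0.0678 CPM in mpk4, highest in replicate 1 like EXPA7 and EXPA18, and 0, 0 and 0.0493 CPM in unsprayed impk4. The part of roots in this result was not tested.

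**Figure D5:**
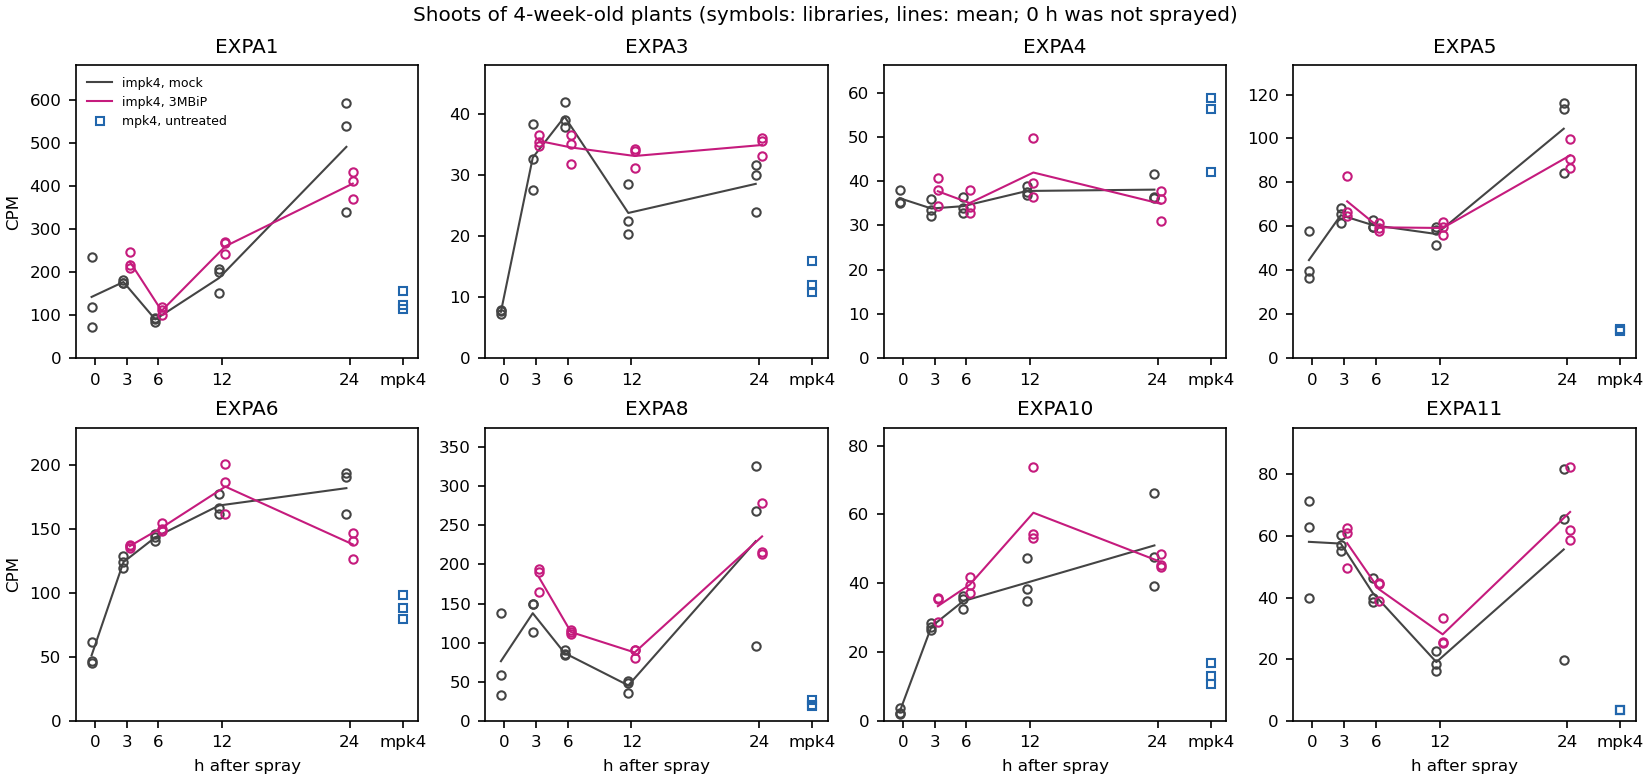
CPM (vertical axes, each from 0) of the other 8 alpha expansins in adult shoots against hours after spray, for impk4 with mock or 3MBiP and, at the right of each panel, for unsprayed mpk4, with 1 symbol per library and lines through the means of 3. EXPA11 lies between 3.37 and 3.44 CPM in mpk4, and EXPA10 and EXPA3 are low at 0 h, when plants were not sprayed.

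The other wall-loosening genes were read from lists. With 100 nM flg22 at 60 min, 9 of the other 16 alpha expansins could be tested, and 3 rose and 0 fell, against 32.7% of genes higher and 33.6% lower: EXPA17, of lateral root tissue, by 2.17 ± 0.24, EXPA16 by 1.85 ± 0.20 and EXPA12 by 1.93 ± 0.31. Their median was 0.34, against -0.85 in the 10 members and -0.03 over all genes. The members and lists were chosen with earlier results of these data known, so these medians are descriptions. With 2 nM flg22 at 1 h EXPA17 rose by 2.40 ± 0.25 but EXPA16 fell by 0.89 ± 0.07 and EXPA15 by 1.08 ± 0.10, and the list had 2 higher and 5 lower of 9, against 29.8% and 30.6% of genes. Pep3 had 4 of 8 lower and 2 higher, against 30.4% and 32.2% of genes, with EXPA15 down by 1.53 ± 0.11. With ABA EXPA16 rose by 1.43 ± 0.10 while EXPA9 and EXPA15 fell by 0.86 ± 0.10 and 0.77 ± 0.10, among 1 higher and 3 lower of 8, against 16.7% and 13.7% of genes. 3MBiP raised 4 of 8 and lowered 1, against 4.62% and 4.03% of genes, with EXPA9 among the higher (0.63 ± 0.10).

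Of 22 xyloglucan endotransglucosylases, which cut and rejoin wall xyloglucan, 6 rose and 12 fell at 60 min of 100 nM flg22, where 32.7% of all genes rose and 33.6% fell, with a median of -0.53. The same shares stand behind the counts at 60 min for the other lists here. XTH18 rose by 5.23 ± 0.08 there, by 6.22 ± 0.17 at 1 h of 2 nM flg22, by 4.75 ± 0.16 with pep3 and by 4.10 ± 0.17 with wounding. XTH27 fell by 2.64 ± 0.06 at 60 min of 100 nM flg22. Of 18 growth regulators, 17 were tested there and 13 fell and 2 rose, with a median of -1.10, among them the growth-promoting factors HBI1 (-3.18 ± 0.10), BEE2 (-2.62 ± 0.09) and PIF4 (-1.59 ± 0.08). HBI1 also fell by 2.05 ± 0.16 with ABA, by 2.50 ± 0.17 with MeJA and by 1.77 ± 0.14 with wounding. Of 11 plasma membrane proton pumps, which acidify the wall, 9 were tested at 60 min and 2 rose and 2 fell. Of 10 beta expansin and expansin-like genes 6 were tested, and at 60 min 1 rose and 5 fell, with a median of -0.91. With wounding 3 rose and 2 fell, and with H2O2 4 rose and 2 fell. Of all genes 28.7% rose and 24.8% fell with wounding, and 21.1% rose and 18.9% fell with H2O2. EXLA1 rose by 1.98 ± 0.15 with wounding and EXLA3 rose by 1.85 ± 0.27 with H2O2.

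Across the 39 seedling group means, each centred on its set, the members most alike were EXPA6 and EXPA8 (Pearson r = 0.9) and EXPA3 and EXPA11 (r = 0.845), and the least alike were EXPA3 and EXPA4 (r = -0.467). The pairs whose upstream bases are shown lay between, EXPA7 and EXPA18 at r = 0.556 and EXPA1 and EXPA10 at r = 0.433. Among 15903 genes with a mean of at least 5 CPM, those most like EXPA1 were AT1G06645 (r = 0.874), AT3G26370 (r = 0.870) and AT3G16560 (r = 0.869). Those most like EXPA8 were AT1G52190 (r = 0.939), AT3G62110 (r = 0.938) and AT1G54820 (r = 0.924). Those most like EXPA7 were AT1G30870 (r = 0.840), MOP10 (r = 0.822) and COW1 (r = 0.818). The group means share libraries' depth and control groups, and these values are descriptions.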

How the data were processed

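Gene counts of RNA-seq libraries were used as the authors deposited them. Per the submitters' processing notes, TopHat, HTSeq and the TAIR10 build were used; versions, and whether strand was counted, are not given in the sources used here. Entries naming no gene (7.98% to 45.6% of a library's total) were left out. Each of the 6 sets was fitted alone in edgeR 4.0.16 (R 4.3.3; TMM factors, filterByExpr, robust quasi-likelihood test), with Benjamini-Hochberg adjustment over all genes tested (20806 to 21543); fold changes are log2, and the fit was tested on simulated data. DESeq2 1.42.0, RLE factors, no filter, a replicate block, the compared groups alone and leaving out single libraries were tried. Sequences were read with Biopython 1.88. The members and lists were chosen with earlier results of these data known. From a list, at most 3 genes per comparison were named, those with the smallest adjusted p. Same-numbered libraries deviated together (every r over 0.1) in 2 comparisons, flg22 1 h against 30 min in WT (lowest r 0.15) and impk4 against WT with UVB (lowest r 0.18). Only comparisons of 2 groups were checked for this, so the interactions were not. Intervals and floors cover counting error only.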

Additional observations from a re-analysis of the deposited data

Results flagged for a closer look

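Each value here is a line's log2 response minus that of WT in sets B1 and B2 (3 libraries per group), and each stands out because edgeR's test of the difference between the responses had an adjusted p under 0.05. With pep3 in impk36 the differences were -1.15 for EXPA1, 0.69 for EXPA3, -1.18 for EXPA5, 0.98 for EXPA11 and 0.74 for EXPA18. With flg22 for 1 h they were 0.59 for EXPA3 and -1.03 for EXPA5 in impk36, and 0.80 for EXPA1, 0.69 for EXPA3 and 0.42 for EXPA6 in impk4. With wounding the difference was -0.54 for EXPA10 in impk36. In impk4 it was 1.02 for EXPA1, -0.38 for EXPA3, -0.60 for EXPA5, 0.78 for EXPA7, -1.73 for EXPA8 and -0.58 for EXPA11. EXPA1 in impk4 with wounding, and EXPA3 and EXPA11 there, lost their calls when the compared groups were fitted alone.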

How the results depend on the processing

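Of the counts of called members recomputed under the alternatives, 501 stayed within 1.5 times and 28 did not. Of the values of single members, 1612 kept their direction and call, 139 lost the call and 12 reversed. All 12 reversals came from comparing mpk4 with the mocks at 3, 6, 12 and 24 h in place of unsprayed impk4: EXPA10 gave -1.03, -1.38, -1.58 and -1.93, EXPA6 gave -0.48, -0.69, -0.92 and -1.04, and EXPA3 gave -1.35, -1.61, -0.88 and -1.14, and the cause was not tested. Without the filter, flg22 at 15 min called 2 members in place of 1, and H2O2 in impk4 called 1 in place of 0. With DESeq2, UVB in impk4 called 1 in place of 0 and the wounding interaction of impk36 called 2 in place of 1. With the compared groups alone, fewer libraries set the spread: impk36 in set B1 called 0 in place of 1, H2O2 in impk4 1 in place of 0, the wounding interaction 3 in place of 1 in impk36 and 3 in place of 6 in impk4, and adult 3MBiP at 6 h 2 in place of 0. With the replicate block, the interactions of pep3 in impk4 and of flg22 at 30 min in impk36 called 1 in place of 0, and wounding in impk36 called 2 in place of 1. Whether same-numbered libraries deviated together was checked in comparisons of 2 groups only, and not for these interactions. In the 2 comparisons where same-numbered libraries did so, the block gave 8 and 0 called members, as without it, and it changed no other count by over 1.5 times.

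Leaving out single libraries moved the count of called members between 0 and 2 for flg22 at 10 min, 1 and 2 at 15 min, 5 and 6 at 30 min, 6 and 7 at 60 min, and 6 and 9 for 60 against 30 min. It lay between 4 and 7 for 3MBiP, 4 and 6 for ABA, and 6 and 7 for MeJA. In set B2 it lay between 4 and 7 for flg22 at 30 min, 8 and 9 at 1 h, 7 and 9 between these times, and 6 and 8 for wounding. It lay between 6 and 9 for UVB and 8 and 9 for H2O2. For the lines it lay between 6 and 8 for impk36 and for impk4 in set B2, 1 and 3 for impk36 with UVB, and 1 and 4 with H2O2. For interactions it lay between 4 and 5 for pep3 in impk36, 0 and 1 for flg22 at 30 min in impk36, 2 and 3 at 1 h in both lines, 1 and 2 for wounding in impk36, and 4 and 6 in impk4. In adult shoots it lay between 2 and 4 at 12 h and between 8 and 10 for mpk4. EXPA8 in seedlings and EXPA7 and EXPA18 in adult shoots had few counts, which limits their precision.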
